A study of Mus musculus with 4 samples.

Results

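Cholesterol and fatty acid synthesis genes were followed in effector T helper (Th) cells of the mouse. The cells had been separated by how much CD30, a member of the TNF receptor superfamily, they carried on their surface. The set held 38 genes, listed by name. Of these, 36 had a probe set with a single gene symbol in the platform annotation, among 18193 genes named in this way, and Nr1h2 and Acat2 had none. The 36 genes fell into 6 of 7 regulators, 16 of 17 genes of cholesterol synthesis, 3 genes of sterol transport and 11 genes of fatty acid synthesis and modification. Each gene was read from its brightest probe set, by the mean of the 4 arrays.

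RNA of 4 populations was hybridized to 4 whole-genome arrays, 1 array per population: Th1 cells and Th17 cells, each split into a CD30low and a CD30high sort. All were grown in vitro for 6 days from splenic CD4 T cells. Th1 cells received IL-2 (30 U/ml), IL-12 (100 U/ml) and antibody to IL-4 (1 µg/ml), and Th17 cells received IL-6, IL-1β and IL-23 (10 ng/ml each) with antibodies to IL-4 and IFN-γ (10 µg/ml each). By the methods, T cells carrying a transgenic receptor for ovalbumin were stimulated with peptide on irradiated splenocytes depleted of T cells. Neither the strain nor the number of mice behind an array was given for these samples. The labels describe the starting cells of the CD30low samples as CD62Llow and those of the CD30high samples as CD62Lhi, whereas the methods describe cells with high CD62L throughout. Starting cells and CD30 sort therefore cannot be told apart if the labels hold. Because each population had 1 array, no difference below has a replicate error or a p-value, and each is a comparison of these arrays.

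The signals are linear and share nearly the same trimmed mean on all arrays, so only changes relative to the bulk of genes are visible. Signals of a pair of sorts are given in the order CD30low, CD30high. Ratios were formed after every signal under 100 had been raised to 100. A gene was called when 2 arrays differed at least 2-fold and the brighter one reached 300, and a gene that reached 300 in either array of a pair counts as measured in that pair. In bulk RNA, fewer cells of a type and less RNA per cell cannot be told apart. The spread between probe sets of a gene was the only measure of precision: the SD of a log2 ratio per probe set, over 2928 genes, was 0.23 and 0.20 for the CD30 ratios in Th1 and Th17 cells and 0.29 and 0.31 for the lineage ratios in CD30low and CD30high cells. Signals of different genes come from different probes and are not compared with each other.

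The arrays carried the T cell genes Cd3e, Cd3d, Cd3g, Cd4 and Cd28 throughout. Tbx21 and Ifng, which mark Th1 cells, were at 2190 and 2506 in CD30low Th1 and at 281 and 106 in CD30low Th17 cells, and Il17a was at 1398 in CD30low and 14443 in CD30high Th17 cells and below 50 in both Th1 arrays. Tnfrsf8, the CD30 gene, had 13.3 (CD30low) and 51.1 (CD30high) on the Th1 arrays and 34.9 (CD30low) and 132 (CD30high) on the Th17 arrays, so that 3 of 4 signals were below 100 and the array gives no check of the sort in Th1 cells. Eif2s3y, on the Y chromosome, was at 1784 and 1640.0 in Th1 cells but below 10 in both Th17 arrays. Xist, on the X chromosome, was at 14620 and 16222.5 in Th1 and at 22350 and 22613 in Th17 cells. The Th1 arrays thus carried both transcripts and the Th17 arrays, of these, only Xist. A Th17 to Th1 ratio therefore also compares material that differs in sex-linked transcripts. None of the 3 adipocyte genes measured (Adipoq, Lep and Cidec) and none of 4 hepatocyte genes reached 100 on any array. Neutrophil genes were present in the Th17 arrays only: 0 of 6 reached 100 in Th1 cells, but 5 of 6 did in CD30low and 3 of 6 in CD30high Th17 cells.

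Cholesterol is built from acetyl-CoA through the mevalonate pathway and a series of sterol intermediates. Its genes are switched on by SREBP2, encoded by Srebf2, which SCAP escorts out of the endoplasmic reticulum when sterols are scarce and which INSIG proteins hold back when sterols are plentiful. SREBP1, encoded by Srebf1, acts mainly on fatty acid synthesis. Liver X receptors sense oxidized sterols and switch on the exporters ABCA1 and ABCG1. T cells that begin to divide use both pathways to make membranes, and sterol intermediates can serve as ligands of the Th17 lineage receptor RORγt.

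The promoters of the genes on which the results turn are shown first, to let a reader see what the members share in sequence. Each window is the 250 bases upstream of an annotated start site in RefSeq (GRCm38.p6). The table used here held such a window for 29 of the 38 members and not for Fdps, Fdft1, Sqle, Stard4, Abcg1, Scd1, Scd2, Fads1 and Fabp5. Capitals mark matches on either strand to TCACNCCAC, the core of the sterol regulatory element bound by SREBPs, to CCAAT, the box bound by NF-Y, which reads ATTGG on the opposite strand, and to CACGTG, the palindromic E-box. No matches overlapped in these windows.
Hmgcs1, chr13:119690101-119690350, plus strand: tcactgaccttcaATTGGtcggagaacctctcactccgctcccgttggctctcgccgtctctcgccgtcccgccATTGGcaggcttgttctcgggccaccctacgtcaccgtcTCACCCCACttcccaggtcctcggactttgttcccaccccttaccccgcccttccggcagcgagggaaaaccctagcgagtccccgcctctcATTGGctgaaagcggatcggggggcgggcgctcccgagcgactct
Mvk, chr5:114444019-114444268, plus strand: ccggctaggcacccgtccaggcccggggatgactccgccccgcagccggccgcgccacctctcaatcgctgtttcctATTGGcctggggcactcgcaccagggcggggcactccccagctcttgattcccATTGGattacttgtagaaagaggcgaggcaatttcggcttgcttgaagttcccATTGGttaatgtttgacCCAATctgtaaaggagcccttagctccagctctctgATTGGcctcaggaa
Dhcr7, chr7:143829964-143830213, plus strand: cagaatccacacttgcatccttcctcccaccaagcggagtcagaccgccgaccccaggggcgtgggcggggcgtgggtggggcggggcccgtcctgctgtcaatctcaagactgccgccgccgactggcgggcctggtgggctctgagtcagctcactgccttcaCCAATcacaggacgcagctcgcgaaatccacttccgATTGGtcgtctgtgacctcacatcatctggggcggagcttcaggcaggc
Hsd17b7, chr1:169969206-169969455, minus strand: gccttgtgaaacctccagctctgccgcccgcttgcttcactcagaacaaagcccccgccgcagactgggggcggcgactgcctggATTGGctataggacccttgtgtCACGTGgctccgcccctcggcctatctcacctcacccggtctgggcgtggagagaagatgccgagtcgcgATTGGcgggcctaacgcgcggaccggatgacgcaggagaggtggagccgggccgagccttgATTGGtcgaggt
Elovl5, chr9:77917115-77917364, plus strand: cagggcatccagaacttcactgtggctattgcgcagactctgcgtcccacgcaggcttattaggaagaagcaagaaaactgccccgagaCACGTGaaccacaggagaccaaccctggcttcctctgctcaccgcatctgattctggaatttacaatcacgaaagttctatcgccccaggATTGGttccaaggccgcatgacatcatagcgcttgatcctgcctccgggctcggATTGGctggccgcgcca
Abca1, chr4:53159896-53160145, minus strand: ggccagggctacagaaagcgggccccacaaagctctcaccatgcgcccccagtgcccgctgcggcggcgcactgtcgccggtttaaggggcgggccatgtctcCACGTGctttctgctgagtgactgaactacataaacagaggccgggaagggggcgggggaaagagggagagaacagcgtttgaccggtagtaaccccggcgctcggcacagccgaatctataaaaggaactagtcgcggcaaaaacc

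Hmgcs1, Mvk, Dhcr7 and Hsd17b7 belong to cholesterol synthesis, Elovl5 to fatty acid elongation and Abca1 to sterol export. A CCAAT box stood in 13 of 14 cholesterol synthesis promoters, counting a gene if any of its windows held one, and the exception was Acat2. For comparison, 37.5% of all 27025 genes in the table and 40.6% of the 6788 genes with a signal of at least 300 on any array held one. The fatty acid genes had 3 of 7, namely Fasn, Elovl1 and Elovl5, and the regulators 5 of 7. The Mvk window held 5 boxes and the Hmgcs1 and Hsd17b7 windows held 3 each. TCACNCCAC was found only in Hmgcs1 among the 29 members, against 1.22% of all genes. CACGTG was found in 7 of 29 members, against 6.86% of all genes and 10.8% of those with a signal of at least 300. Dhcr7 has 3 annotated starts, and the window shown, which holds the most matches, is that of the start farthest downstream. A match is a stretch of letters and not evidence that a factor binds.

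The first question was whether lipid genes go with CD30 in Th17 cells. Genes of cholesterol synthesis were lower in CD30high than in CD30low Th17 cells along nearly the whole pathway, whereas the fatty acid genes split. The ratio was below 1 for 15 of 16 measured cholesterol synthesis genes, against 48.8% of all 7786 genes measured. Their median log2 ratio was -0.35, while the median of all genes was 0.01. Most of these differences were small. Of the 34 members measured, 3 passed the 2-fold rule, all lower. The background was 7.6% of all genes in either direction, 3.94% higher and 3.66% lower, so the number past the rule was near the background for the set as a whole. At 1.5-fold, 8 of 34 members differed, 2 higher and 6 lower, against 18.6% of all genes. In that count 4 of 16 cholesterol synthesis genes were lower and 0 higher, against 9.12% and 9.52% of all genes.

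**Figure D1:**
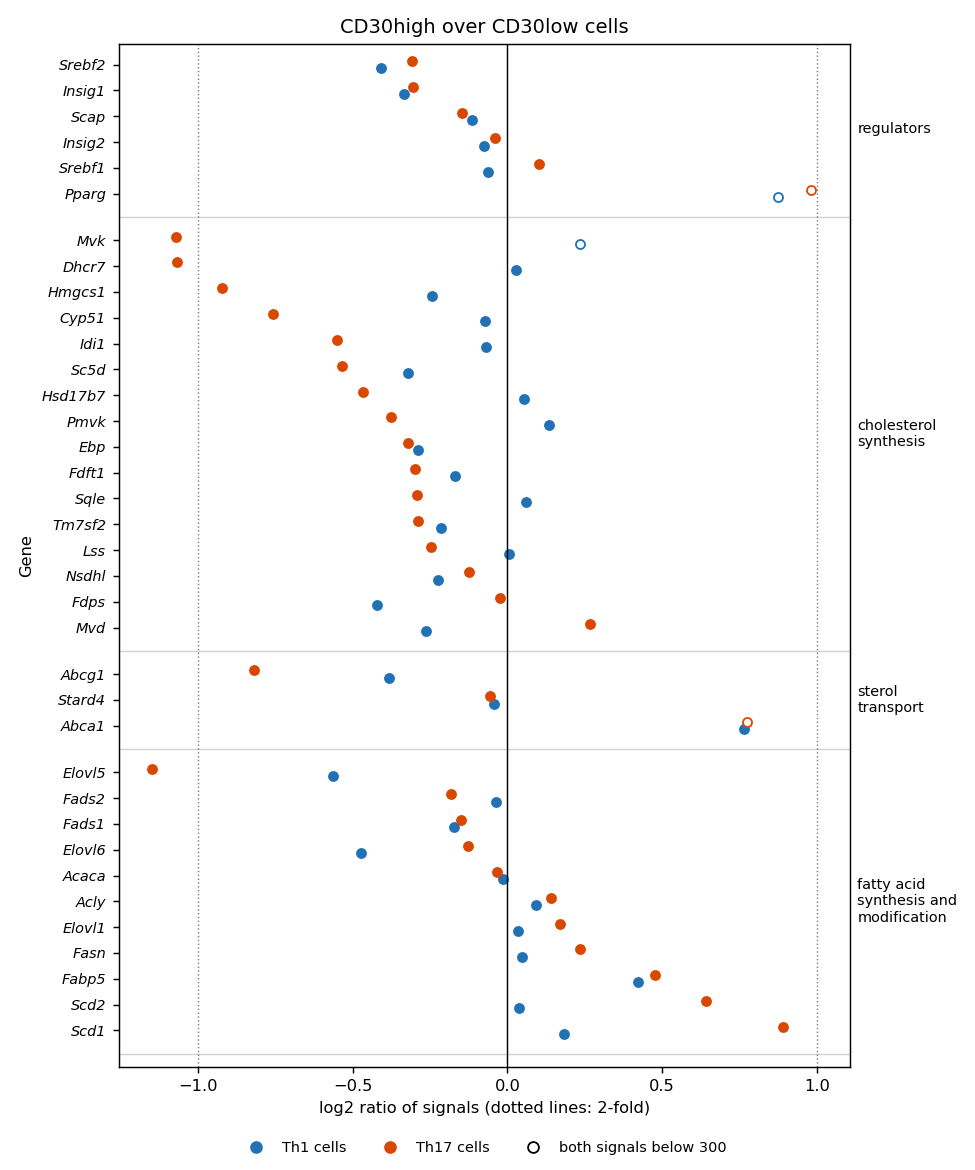
Log2 ratios of signals of CD30high over CD30low cells (x axis) for the 36 named members (y axis), grouped by role, in Th1 (blue) and Th17 (orange) cells, 1 array per group; open points mark pairs with both signals below 300. In Th17 cells 15 of 16 cholesterol synthesis points lie left of 0, with Mvd the exception, while the fatty acid points lie on both sides.

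Among the early enzymes, HMG-CoA synthase 1 (Hmgcs1) condenses acetoacetyl-CoA and acetyl-CoA. It had 11281 (CD30low) and 9521 (CD30high) on the Th1 arrays and 12326 (CD30low) and 6498 (CD30high) on the Th17 arrays. The CD30high Th17 array was thus the lowest of the 4 and the other 3 lay close together. The Th17 ratio of 1.90-fold lower fell just short of the rule. The other 4 probe sets of Hmgcs1 gave 1.93-, 2.20-, 2.08- and 2.05-fold lower, so that 5 of 5 had the same direction and 3 of 5 a ratio above 2.

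Mevalonate kinase (Mvk), the next enzyme but one, had 241 and 284 in the Th1 arrays and 365 and 174 in the Th17 arrays, which is 2.10-fold lower in CD30high Th17 cells. Its second probe set went the other way, with 114 in CD30low and 153 in CD30high Th17 cells, and was dim throughout. The Mvk call therefore rests on 1 probe set close to the signal limit. Phosphomevalonate kinase (Pmvk), which follows it, had 870.3 and 956 in Th1 and 723 and 557 in Th17 cells. Mevalonate diphosphate decarboxylase (Mvd) was the only cholesterol synthesis gene with a ratio above 1 in Th17 cells, with 578 in CD30low and 695 in CD30high cells (1.20-fold). A second Mvd probe set had 562 and 599.

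Isopentenyl diphosphate isomerase (Idi1) had 3335 and 3177 in Th1 cells and 6262 and 4280.5 in Th17 cells, a ratio of 1.46-fold lower with CD30 in the latter. Its second probe set gave 1.25-fold lower. Farnesyl diphosphate synthase (Fdps) hardly differed in Th17 cells, with 6424 and 6321, and was 1.34-fold lower in CD30high Th1 cells, with 6689 and 4999. Squalene synthase (Fdft1), squalene epoxidase (Sqle) and lanosterol synthase (Lss), which make and close the sterol skeleton, were each lower in CD30high Th17 cells by between 1.19-fold and 1.23-fold, about the size of the spread between probe sets.

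The later steps turn lanosterol into cholesterol. Dhcr7, a late reductase of the pathway, had 477 and 486 in Th1 cells and 402 and 192 in Th17 cells. The Th1 arrays were alike and the CD30high Th17 array stood apart, 2.10-fold below its CD30low partner. Dhcr7 had a single probe set. Lanosterol demethylase (Cyp51) had 2069 and 1966 in Th1 and 2977 and 1761 in Th17 cells (1.69-fold lower), and a second probe set gave 1.46-fold lower. Sc5d, a sterol desaturase, had 2144 and 1715 in Th1 and 2334 and 1612 in Th17 cells, and its ratio of 1.45-fold lower in Th17 cells was met by a second probe set with a log2 ratio of -0.48. Hsd17b7, a sterol ketone reductase, had 1355 and 979.9 in Th17 cells (1.38-fold lower). A second probe set of Hsd17b7 gave 1.13-fold lower and another 1.5-fold lower. Tm7sf2, Nsdhl and Ebp were lower by between 1.09-fold and 1.25-fold.

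The regulators of the pathway differed little. Srebf2 had 1723 (CD30low) and 1299 (CD30high) on the Th1 arrays and 1707 and 1379 in the Th17 sorts, so the CD30high array was the lower one in both lineages, by 1.33-fold and 1.24-fold. Insig1, a retention factor that is itself an SREBP target, showed the same order, with 2691 and 2133 in Th1 and 2269 and 1837 in Th17 cells. Srebf1 had 2745 and 2631 in Th1 and 3250 and 3490.4 in Th17 cells. Scap and Insig2 differed by at most 1.11-fold between the CD30 sorts on their brightest probe sets. A second Insig2 probe set, nearly as bright, had 844 and 577 in Th1 cells (1.46-fold lower with CD30) and 850 and 878 in Th17 cells. The remaining Insig2 probe set differed by at most 1.04-fold. Pparg, a nuclear receptor of lipid storage, was below 300 on every array, with 101 and 186 in Th1 and 150.1 and 297 in Th17 cells, and so did not count as measured. Its ratios were 1.84-fold and 1.98-fold, the CD30high array being brighter in both lineages.

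The fatty acid genes did not share a direction in Th17 cells, where 6 of 11 ratios were above 1 and 5 below, with a median log2 ratio of 0.14. Elovl5, which elongates polyunsaturated fatty acids, had the lowest ratio of all members measured. It had 14993 (CD30low) and 10143 (CD30high) on the Th1 arrays and 10299.6 (CD30low) and 4645 (CD30high) on the Th17 arrays. The CD30high array was the lower one in both lineages, by 1.48-fold and 2.22-fold, and a second probe set gave 1.36-fold and 2.26-fold. Scd1 and Scd2 encode stearoyl-CoA desaturases, which make monounsaturated fatty acids, and both went the other way in Th17 cells. Scd1 had 1421 and 1614 in Th1 and 477 and 886 in Th17 cells, a ratio of 1.86-fold in the latter, with 2.25-fold for a second probe set. Scd2 had 21682 and 22279 in Th1 and 15212 and 23727 in Th17 cells (1.56-fold), with 1.65-fold and 1.77-fold for the other 2 probe sets.

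Fabp5, which carries fatty acids within the cell, had 10145 and 13598 in Th1 and 19227 and 26739 in Th17 cells. It was brighter in CD30high cells of both lineages, by 1.34-fold and 1.39-fold, and a second probe set gave 1.54-fold and 1.69-fold. The core enzymes of fatty acid synthesis differed less. ATP citrate lyase (Acly), acetyl-CoA carboxylase (Acaca) and fatty acid synthase (Fasn) differed by at most 1.18-fold between the CD30 sorts, the ratio of Fasn in Th17 cells, with 2363 and 2780. Elovl1, Fads1 and Fads2 differed by at most 1.14-fold between the CD30 sorts. Elovl6 was 1.39-fold lower in CD30high Th1 cells, with 2002 and 1443, and 1.09-fold lower in Th17 cells, with 1813 and 1659. A second Elovl6 probe set gave 1.63-fold lower in Th1 and 1.24-fold lower in Th17 cells. A dim one gave at least 1.56-fold and 1.47-fold lower.

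**Figure D2:**
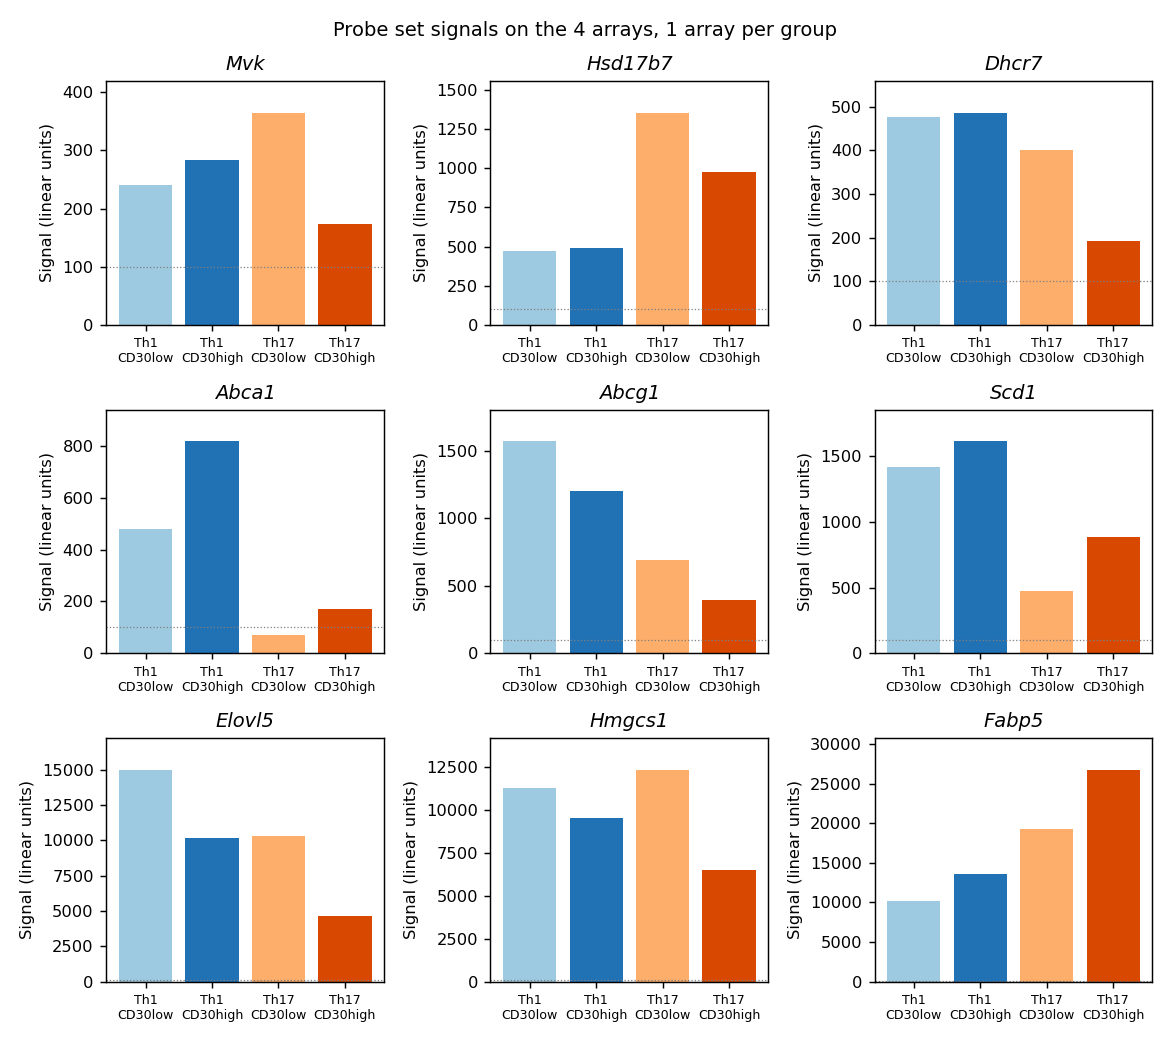
Probe set signals (y axis, linear units, from 0) on the 4 arrays (x axis) for the 7 members past the 2-fold rule in any comparison and for Hmgcs1 and Fabp5, 1 array per group; the dotted line is the floor of 100. Hmgcs1 and Dhcr7 are lowest in CD30high Th17 cells, Abca1 and Abcg1 are lower in both Th17 arrays than in both Th1 arrays, and Fabp5 is highest in CD30high Th17 cells.

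The exporters that carry sterols out of the cell differed in direction from each other. Abca1, an exporter to lipid-poor apolipoprotein, had 481 (CD30low) and 819 (CD30high) on the Th1 arrays and 69.8 (CD30low) and 171 (CD30high) on the Th17 arrays. The CD30high array was the brighter one in both lineages, by 1.70-fold in Th1 and by at least 1.71-fold in Th17 cells, where both signals were under 300. Abcg1, an exporter to mature lipoprotein particles, ran against it and in the direction of most synthesis genes, with 1569 and 1204 in Th1 cells and 692 and 393 in Th17 cells, which is 1.30-fold and 1.76-fold lower in CD30high cells. A second, dim probe set of Abcg1 had 152 and 185 in Th1 and 75.4 and 8.24 in Th17 cells. Stard4, a carrier of cholesterol between membranes, differed by at most 1.04-fold.

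In Th1 cells the CD30 sorts differed less, and 0 of 34 measured members passed the 2-fold rule, against 1.28% of 7813 genes (0.794% higher and 0.486% lower). On the brightest probe sets Abca1 was the only member past 1.5-fold, against 7.62% of all genes (4.04% higher and 3.57% lower). The cholesterol synthesis genes had 10 of 15 ratios below 1, against 53.9% of all genes, with 5 above 1, against 46.1%, and a median log2 ratio of -0.17, against -0.03 for all genes. The median of the fatty acid genes was 0.03. The lowest ratios were those of Elovl5, Elovl6 and Fdps and the highest those of Abca1, Fabp5 and Scd1. A second probe set of Mvd gave 1.88-fold lower, with 845 and 449, where the brightest gave 1.20-fold lower, with 679.7 and 567.

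The Th1 and Th17 ratios share no array. Both were below 1 for 9 of 15 cholesterol synthesis genes measured in both lineages, against 31.1% of 7372 genes, and both were above 1 for none, against 27.6%. In 12 of these 15 genes the ratio was smaller in Th17 than in Th1 cells, against 48% of all genes, with a median difference of -0.25 on the log2 scale. Among the fatty acid genes 11 of 11 had the same direction in both lineages, 6 higher and 5 lower in CD30high cells. Some of these ratios were far smaller than the probe set SD. Acaca had log2 ratios of -0.01 and -0.03, and Elovl1, Scd2 and Fads2 had 0.03, 0.04 and -0.04 in Th1 cells. Further Elovl1 probe sets gave -0.04, -0.03 and, for a dim one, 0.52 in Th1 cells, and those of Scd2 gave 0.23 and -0.10. Of 35 members with a signal of at least 300 on any array, 2 had a CD30 ratio that differed at least 2-fold between the lineages, Mvk and Dhcr7, against 6.59% of 8227 genes, so this count was near the background. With 1 array per group, none of these differences between the lineages was tested.

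Other transcripts moved with the Th17 sort. All 3 Th17 markers named in the annotation were higher in CD30high Th17 cells: Il17a by 10.3-fold, Rora by 2.61-fold and Ccr6 by 2.44-fold. Of the T cell genes, Cd3e, Cd3d, Cd3g and Cd4 were 1.38-, 1.39-, 1.56- and 1.17-fold lower and Cd28 was 1.64-fold higher in these cells. The summed signal of 6 neutrophil genes was 8879 in CD30low and 2201 in CD30high Th17 cells, and that of 6 genes listed for fibroblasts was 1030 and 7759. In the latter list Lum and Dcn carried the sum, while Col1a1, Col1a2, Col3a1 and Pdgfra were below 100 on all 4 arrays. Of 8 macrophage and dendritic cell genes, Lyz2 alone reached 100 in CD30low Th17 cells, at 231 against 88.5 in CD30high cells. In the latter 3 others did, Adgre1, Csf1r and Cd14, at 158, 130.1 and 104, and the summed signal of the list was 559 and 765. The part of these transcripts and cells in the lipid gene differences was not tested.

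**Figure D3:**
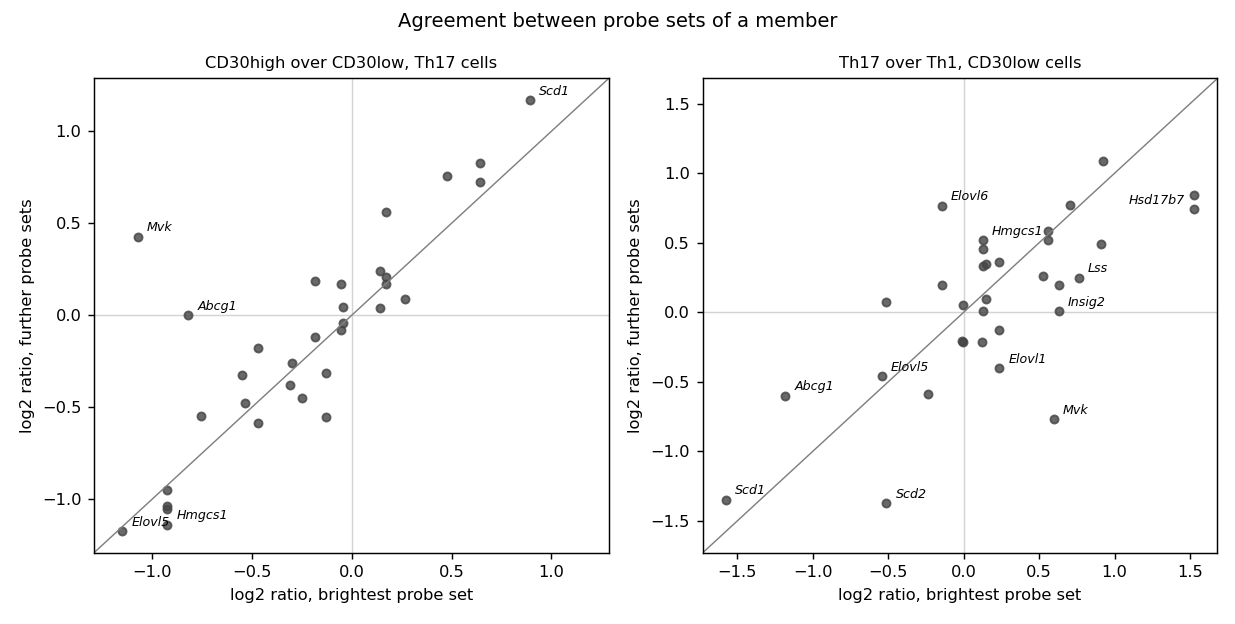
Log2 ratio of the brightest probe set (x axis) against that of each further probe set with a mean signal of at least 100 (y axis), for the 21 members that have one, in the CD30 comparison of Th17 cells (left) and the lineage comparison of CD30low cells (right); the line marks equal ratios. Hmgcs1, Elovl5 and Scd1 lie near the line at left, while the second probe set of Mvk lies on the other side of 0 in both panels.

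To ask how the lineages differ, Th17 arrays were compared with Th1 arrays of the same CD30 sort. In the CD30low sort 4 of 35 measured members were past 2-fold, with 1 higher in Th17 cells and 3 lower, against 9.35% of 7857 genes (3.53% higher and 5.83% lower). In the CD30high sort 5 of 34 were past it, with 1 higher and 4 lower, against 11.8% of 7979 genes (4.98% higher and 6.86% lower). At 1.5-fold the counts were 7 higher and 3 lower in CD30low cells, against 25% of all genes (11.7% higher and 13.3% lower), and 4 higher and 6 lower in CD30high cells, against 28.4% (13.6% higher and 14.9% lower). Taken over both directions, these counts were near the background. By direction, the 7 of 35 past 1.5-fold and higher in CD30low cells were a larger share than the 11.7% of all genes. The 2 sterol exporters passed in both sorts. The summed signal of genes listed for CD8 and NK cells went with the lineage as well, at 9345 and 7062 in the Th1 arrays and 1013 and 743 in the Th17 arrays. Klrd1 and Klrk1 carried most of that sum. Klrd1 was 17.5-fold and 25.2-fold and Klrk1 15.1-fold and 14.6-fold lower in Th17 cells of the CD30low and CD30high sorts. Cd8b1 was 1.80-fold and 1.55-fold lower, while Cd8a and Ncr1 were below 100 on all arrays. The part of these transcripts, or of cells that carry them, in the lineage ratios of the lipid genes was not tested.

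Abca1 had signals of 481 in CD30low Th1 against 69.8 in CD30low Th17 cells (at least 4.81-fold lower), and of 819 against 171 in CD30high cells (4.78-fold lower). Abcg1 was 2.27-fold and 3.06-fold lower in Th17 cells of the same sorts. Both Th17 arrays lay below both Th1 arrays for either gene. The further probe sets of Abca1 were below 100 on all arrays, and the dim one of Abcg1, below 100 in both Th17 arrays, was at least 1.52-fold and at least 1.85-fold lower. Scd1 was lower in Th17 cells too, 2.98-fold in the CD30low and 1.82-fold in the CD30high sort. A second Scd1 probe set gave 2.55-fold and 1.39-fold. The probe sets of Scd2 did not give 1 answer in CD30low cells: the brightest was 1.43-fold lower, another was 2.59-fold lower, and the remaining one had a log2 ratio of 0.07.

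Among cholesterol synthesis genes, Hsd17b7 was higher in Th17 cells. It had 470.4 (CD30low) and 489 (CD30high) on the Th1 arrays and 1355 and 979.9 in the Th17 sorts, a ratio of 2.88-fold in the CD30low and 2.00-fold in the CD30high sort. The other 2 probe sets above 100 gave 1.80-fold and 1.67-fold in CD30low and 1.24-fold and 1.21-fold in CD30high cells, so that the call rests on 1 probe set. Idi1 (1.88-fold), Lss (1.70-fold) and Fdft1 (1.63-fold) were also higher in CD30low Th17 than in CD30low Th1 cells, below 2-fold. Their second probe sets gave 1.41-fold, 1.19-fold and 1.70-fold, in that order. Mvk was 1.51-fold higher in the CD30low sort, but its second, dim probe set was 1.70-fold lower. In that sort 11 of 16 cholesterol synthesis genes had ratios above 1, against 50.1% of all genes, 5 had ratios below 1, against 49.9%, and 5 of 16 were past 1.5-fold and higher, against 11.7%. Their median log2 ratio was 0.26, against 0.00 for all genes. These counts depend on the probe set. With the mean of the probe sets 9 of 16 ratios were above 1 and 7 below, where 50.4% of all genes were below. On the second brightest probe set 6 of 8 were above 1 and 2 below.

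In CD30high cells the pathway was less uniform between the lineages, with 9 of 15 ratios above 1, against 53% of all genes, 6 below, against 47%, and a median of 0.14. Dhcr7 was 2.54-fold lower in Th17 cells, with 486 against 192, while in CD30low cells it had 477 and 402. Pmvk was 1.72-fold lower and Hmgcs1 1.47-fold lower. Both lineage ratios, which share no array, were above 1 for 7 of 15 cholesterol synthesis genes, against 38.1% of 7609 genes, and below 1 for 3, against 35.5%. Nsdhl and Ebp lie on the X chromosome and differed by at most 1.10-fold between the lineages.

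**Figure D4:**
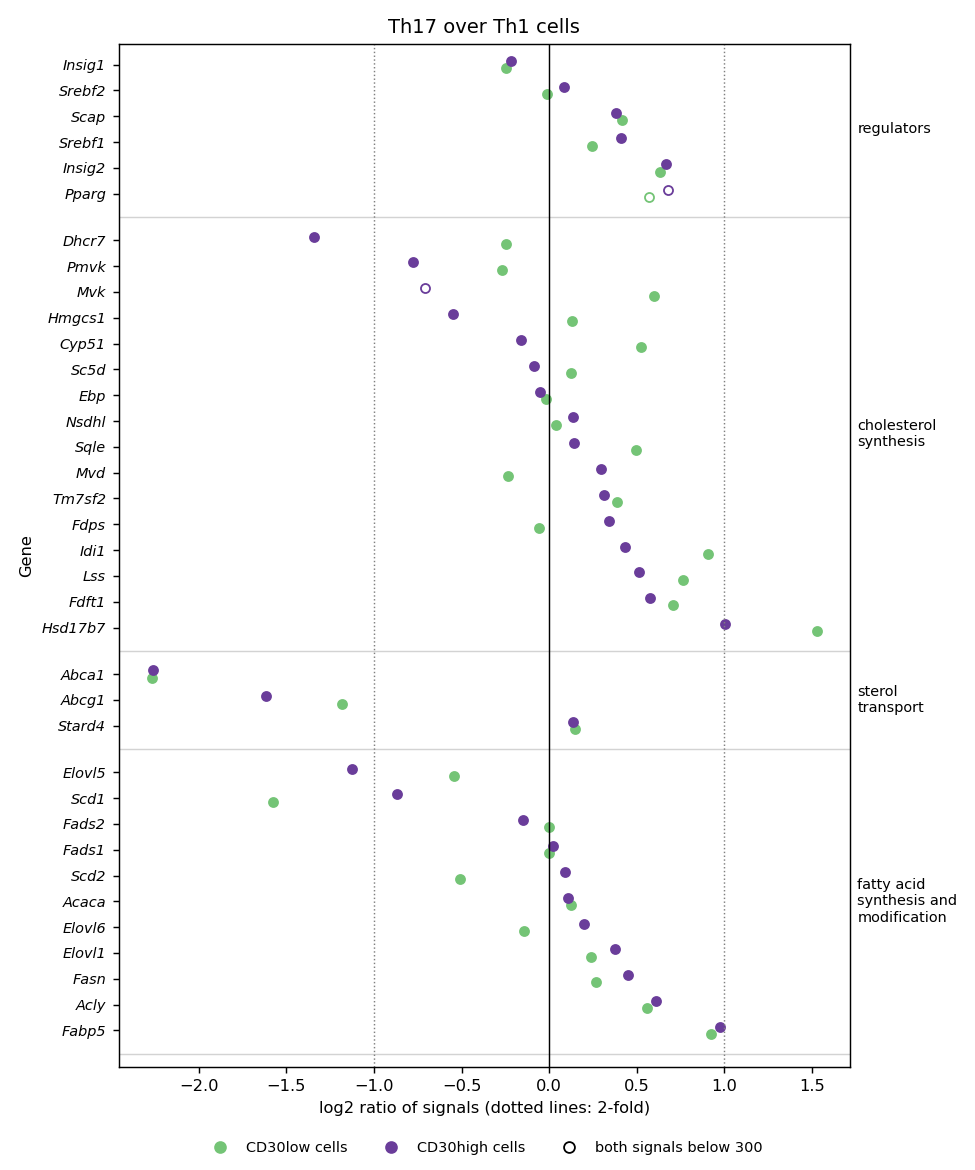
Log2 ratios of signals of Th17 over Th1 cells (x axis) for the 36 named members (y axis), grouped by role, in CD30low (green) and CD30high (purple) cells, 1 array per group; open points mark pairs with both signals below 300. Abca1 and Abcg1 lie left of the 2-fold line in both sorts, and Hsd17b7 and Fabp5 lie at or near the 2-fold line on the right.

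Among the fatty acid genes, Fabp5 was 1.90-fold and 1.97-fold higher in Th17 cells of the CD30low and CD30high sorts, just under the rule, and a second probe set gave 2.13-fold and 2.34-fold. Elovl5 was 1.46-fold and 2.18-fold lower, with 2.28-fold in CD30high cells for the second probe set. Acly was 1.47-fold and 1.52-fold higher, and its 2 other bright probe sets had log2 ratios between 0.37 and 0.69. Acaca, Fads1 and Fads2 differed by at most 1.11-fold between the lineages. Of the regulators, Insig2 was 1.55-fold and 1.59-fold higher, with 645 and 612 in Th1 and 999 and 971 in Th17 cells, but another of its probe sets had a log2 ratio of 0.01 in the CD30low sort. Srebf2 differed by at most 1.06-fold.

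Further genes of the same pathways were counted from 3 lists. Of 29 other sterol genes, 22 were named in the annotation, and 15 were measured in Th17 cells. In the CD30 comparison of Th17 cells 1 of 15 was higher and 1 lower, near the background of 3.94% and 3.66% of all genes, and the median log2 ratio was 0.14. Mylip, a ubiquitin ligase that removes lipoprotein receptors and is switched on by liver X receptors, had 2641 (CD30low) and 1286 (CD30high) on the Th1 arrays and 446 (CD30low) and 129 (CD30high) on the Th17 arrays. It was lower in CD30high cells of both lineages, by 2.05-fold and 3.46-fold, and lower in Th17 cells of both sorts, by 5.92-fold and 9.96-fold. Vldlr, a lipoprotein receptor, ran against it, with 605 and 939.9 in Th1 and 962 and 2329 in Th17 cells. It was 2.42-fold higher with CD30 in Th17 cells and 2.48-fold higher in Th17 than in Th1 cells of the CD30high sort. Msmo1, a sterol oxidase that acts beside Cyp51 and Nsdhl, had 3065 and 2468 in Th1 and 3339 and 2358 in Th17 cells.

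Of 44 other fatty acid and lipid genes, 42 were named and 23 measured in the Th17 pair, with 2 higher and 0 lower, against 3.94% and 3.66% of all genes. Dgat1, which makes triglycerides, had 521 and 1896 in CD30low and CD30high Th17 cells (3.64-fold) and 938 and 977 in the Th1 cells. Plin2, a coat protein of lipid droplets, had 2684 and 6043 in Th17 (2.25-fold) and 1550.3 and 2527 in Th1 cells (1.63-fold). In Th1 cells 1 of 25 measured genes of this list was higher and 0 lower, against 0.794% and 0.486% of all genes. It was malic enzyme 1 (Me1), which supplies NADPH, with 361 and 737 (2.04-fold). Me1 had 88.0 and 236 in Th17 cells. Between the lineages, 1 of 26 was higher and 2 lower in CD30low Th17 cells, against 3.53% and 5.83% of all genes. In the CD30high sort 1 of 25 was higher and 3 lower, against 4.98% and 6.86%. Me1 (at least 3.61-fold and 3.12-fold) and Elovl7, a fatty acid elongase (3.08-fold and 2.70-fold), were lower in Th17 cells of the CD30low and CD30high sorts. Acsl6, an acyl-CoA synthetase, was 2.12-fold higher in CD30low and Lpin2, a phosphatidate phosphatase, 2.94-fold lower in CD30high Th17 cells. Plin2 was 2.39-fold higher in CD30high Th17 than in CD30high Th1 cells.

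Of 17 genes of fatty acid oxidation, 16 were named and measured. In CD30high against CD30low Th17 cells 12 of 16 ratios were above 1, against 51.2% of all genes. Of the 16, 2 were called higher and 0 lower, against 3.94% and 3.66% of all genes. Acadl, an acyl-CoA dehydrogenase, had 6543 and 15822 (2.42-fold), and Eci1, an enoyl-CoA isomerase, 175 and 458 (2.61-fold). Cpt1a, which admits fatty acids to mitochondria, ran the other way, with 1118 and 608 (1.84-fold lower). For Acadl and Eci1 the CD30low Th17 array was the lowest of the 4, at 2.25-fold and 2.10-fold below CD30low Th1 cells. In Th1 cells 0 of the 16 were called, against 1.28% of all genes, and the median log2 ratio of the 16 was 0.04.

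**Figure D5:**
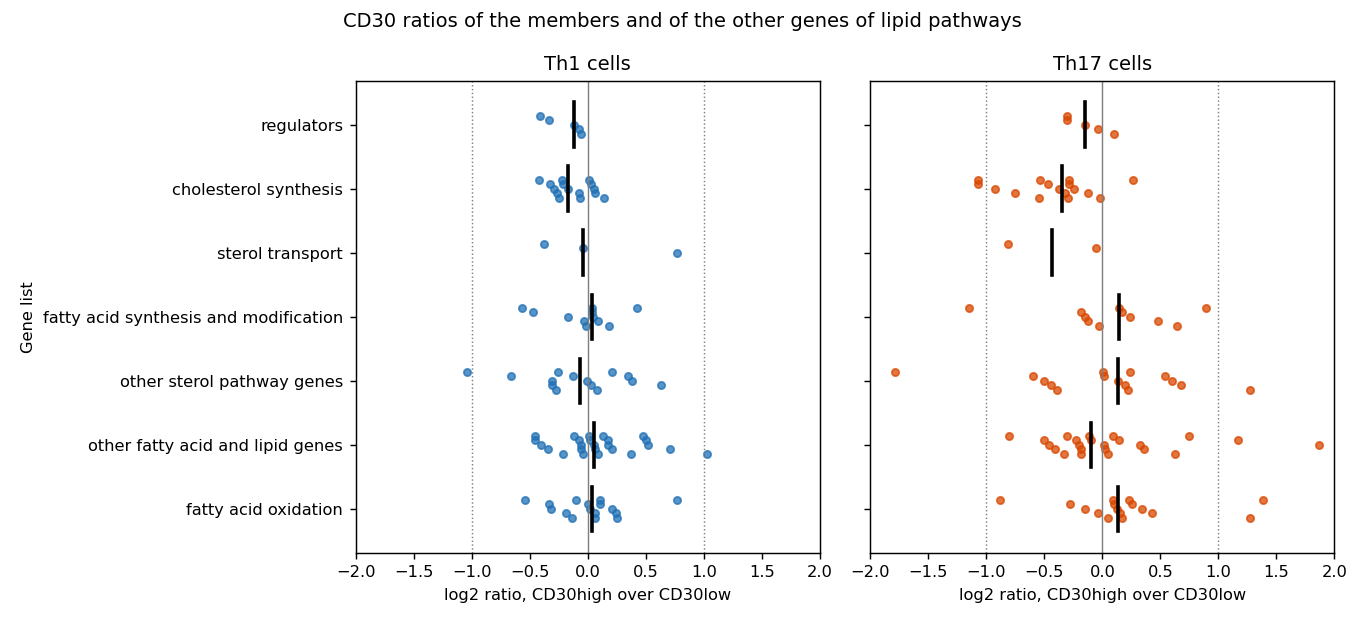
Log2 ratios of CD30high over CD30low cells (x axis) for the measured genes of the 4 member groups and of 3 lists of other lipid genes (y axis) in Th1 (left) and Th17 (right) cells, 1 array per group; points are genes, black bars are medians, and dotted lines mark 2-fold. The bar of cholesterol synthesis lies at -0.17 in the left panel and at -0.35 in the right one, while that of fatty acid oxidation lies at 0.04 and 0.14; the sterol transport bar in Th17 cells rests on 2 genes.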

How the data were processed

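RNA of 4 cell populations was labelled with a 3' IVT kit and hybridized to Affymetrix mouse arrays, 1 per population. The authors deposited 1 linear intensity per probe set and array, credited to the GeneChip Operating Software in the methods and to Affymetrix Expression Console in the submitters' processing notes. The version, the summary algorithm and the scaling target were not given in the sources used here. Leaving out the lowest and highest 2%, array means lay between 496.6 and 497, so overall RNA levels are taken as equal. Median signals were 73.1 and 86 in CD30low and CD30high Th1 and 62 and 64.3 in CD30low and CD30high Th17 cells.

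The table held 45037 probe sets without detection calls. Of these, 34945 had 1 gene symbol, 932 several and 9160 none here. Of those with 1 symbol, 34741 were matched by gene identifier to RefSeq (GRCm38.p6) and took the symbol given there, changed or not. For each of 18193 genes the brightest probe set was taken, signals below 100 were set to 100, and log2 ratios were formed. A call needed 2-fold (or 1.5-fold where stated) and 300 in the brighter array, after the signal limit in a legend of the study. No test was run. Named members were those past the rule, the 3 largest and 3 smallest ratios per comparison and at least 2 per role, and of the other lists those called, while further members and Msmo1 were added to account for the pathway. The members and lists were chosen with earlier results of these data known. Alternatives used other limits, floors, scalings and probe sets. The calling code was tested on simulated data. Python 3.11.15, numpy 2.4.6, pandas 2.3.3 and matplotlib 3.10.9 were used. The number of arrays limits the precision.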

Additional observations from a re-analysis of the deposited data

Results flagged for a closer look

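Mvk and Dhcr7 are listed because their CD30 ratios had opposite signs in Th1 and Th17 cells and lay at least 2-fold apart. They were 2 of 35 members with a signal of at least 300 on any array, and 6.59% of all 8227 such genes differed by that much, so their number was near the background. For Mvk the log2 ratio in Th17 minus that in Th1 cells was -1.31, from 0.23 in Th1 and -1.07 in Th17 cells. Both Th1 signals of Mvk were below 300, and its second probe set had log2 ratios of 0.21 and 0.43. For Dhcr7 the difference was -1.09, from 0.03 in Th1, where the signals of 477 and 486 hardly differed, to -1.07 in Th17 cells. These differences between the lineages were not tested.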

How the results depend on the processing

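With a limit of 1.5-fold, the members called became 1 in the CD30 comparison of Th1 cells (from 0), 8 in that of Th17 cells (from 3, with 2 higher and 6 lower), 10 in the lineage comparison of CD30low cells (from 4) and 10 in that of CD30high cells (from 5). In the CD30 comparison of Th17 cells, a signal limit of 500 and quantile normalization each left 1 member, Elovl5. With the second brightest probe set, 2 members were called in each lineage comparison, fewer members having one, and the median log2 ratio of the fatty acid genes in CD30high cells was 0.59 over 7 genes. On that probe set the Th17 CD30 log2 ratio of Mvk was reversed, at 0.43. Of the 2 members whose CD30 ratio differed at least 2-fold between lineages, 0 were left with a signal limit of 500, 1 with quantile normalization (Mvk), 1 with the mean of the probe sets (Dhcr7) and 1 with the second brightest probe set, a different one (Mvd). The other 103 values of counts and medians moved by at most 1.5 times or by less than the probe set SD. Of 804 values of single members under alternatives, 752 moved less than that SD, 51 moved more and 1 was reversed. Many of the 752 could not move. A floor leaves members with all signals above it unchanged, and the mean of the probe sets does so for members with a single usable one. In Th17 cells 15 of 16 cholesterol synthesis ratios were below 1 under both floors, both scalings and the mean of the probe sets, and 7 of 8 on the second brightest probe set. No paired analysis was possible because each group has 1 array and the labels carry no replicate numbers. Dim members, among them Pparg, Mvk and Abca1 in Th17 cells, lie near the limit that signal over background sets.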
